A study of Mus musculus with 12 samples.

Results

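The small and inducible heat shock genes described here are Cryab, Hspb1, Hspb8, Hspa1a, Hspa1b, Hspa8, Hsph1 and Dnajb1, chosen by symbol from a table of 23412 genes. Cryab was selected on its values, since its RNA was lower in each single knockout than in wild type by more than in the double knockout, so its levels are a description and no p is given for it. The other 7 genes were chosen as members of the same stress response. The data are poly-A selected, paired-end RNA sequencing of v6.5 cells, a line of mouse embryonic stem cells from a male embryo, grown on gelatin-coated dishes. The 4 groups of 3 biological replicates each were WT, Hmgn1-/-, Hmgn2-/- and Hmgn1-/-Hmgn2-/-, which lack 1 or both of the nucleosome-binding proteins encoded by Hmgn1 and Hmgn2. Each knockout was a line grown from a single edited cell, the double came from the Hmgn2-/- line, in which Hmgn1 was then edited, and the replicates of a group were grown from 1 line. An effect of a genotype therefore cannot be told apart from an effect of its clone. The labels name no heat or other stress treatment.

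Heat shock proteins are chaperones, which bind unfolded or partly folded proteins, keep them from clumping and help them refold. Heat and other stresses that unfold proteins free the transcription factor HSF1 from chaperones in the cell, and HSF1 then binds arrays of short GAA and TTC units, the heat shock elements, in front of its target genes. Small heat shock proteins hold unfolded proteins without using ATP, HSP70 proteins fold them with ATP, HSP40 proteins deliver clients to HSP70, and HSP110 proteins exchange its nucleotide.

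Promoters are shown for 3 members whose RNA values differed with genotype or that share their sequence, because the units HSF1 reads lie in front of the start site. RefSeq promoters of build GRCm38.p6 matched 6 of the 8 members by symbol and gave 8 windows of 250 bases, each ending at the base before a start site. Cryab and Hspa8 had no entry. Each window was searched on both strands for pairs of facing units, written GAANNTTC and TTCNNGAA, each of which is its own reverse complement, and the units found are in capitals. The Hspb1 window is chr5:135887669-135887918 on the plus strand, the Hspa1a window is chr17:34972157-34972406 on the minus strand, and the Hspa1b window is chr17:34959239-34959488 on the minus strand.
Hspb1: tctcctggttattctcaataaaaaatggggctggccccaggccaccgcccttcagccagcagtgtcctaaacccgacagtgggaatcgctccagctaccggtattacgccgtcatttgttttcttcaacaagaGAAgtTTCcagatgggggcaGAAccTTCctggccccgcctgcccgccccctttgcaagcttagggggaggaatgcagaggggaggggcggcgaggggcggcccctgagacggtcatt
Hspa1a: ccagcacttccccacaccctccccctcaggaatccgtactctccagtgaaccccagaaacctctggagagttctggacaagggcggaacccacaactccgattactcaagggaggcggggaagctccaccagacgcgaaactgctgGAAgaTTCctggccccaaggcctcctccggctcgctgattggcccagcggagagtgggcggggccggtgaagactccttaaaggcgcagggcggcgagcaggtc
Hspa1b: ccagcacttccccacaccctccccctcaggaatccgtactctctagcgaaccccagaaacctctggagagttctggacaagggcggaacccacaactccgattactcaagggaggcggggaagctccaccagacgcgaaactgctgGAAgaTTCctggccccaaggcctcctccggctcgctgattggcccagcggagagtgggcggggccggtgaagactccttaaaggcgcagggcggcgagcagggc
The Hspb1 window held 2 matches to GAANNTTC, which began at -117 and -97 from the start site. In Hspa1a and Hspa1b there was 1 match each, at -104, and these windows differed from each other at 3 of 250 bases. Both windows of Hsph1 held the same TTCNNGAA, at -33 from 1 start site and -54 from the other, while the windows of Hspb8 and Dnajb1 held neither pair. Among all 32851 promoter windows, 6.69% held GAANNTTC and 7.17% held TTCNNGAA. The array of 3 alternating units was in 0 of the 8 windows of the members, beside 0.466% of all windows. A match is a description of the letters and not of a bound site.

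Libraries held between 17337908 and 31448468 counts, with a median of 25931067. Levels are given as CPM after TMM scaling, that is, counts as a share of an effective library size that is set from the bulk of the genes, and the TMM factors lay between 0.970 and 1.02. The targeted genes were read first as a check of the labels. Hmgn1 was at 622 ± 35.1 CPM (SD, n = 3) in WT, 140 ± 1.77 in Hmgn1-/-, 581 ± 51.4 in Hmgn2-/- and 21.0 ± 0.929 in the double. Hmgn2 was at 126 ± 9.50 CPM in WT, 109 ± 3.84 in Hmgn1-/-, 53.1 ± 1.92 in Hmgn2-/- and 53.0 ± 2.16 in the double. Each targeted gene was thus lower in the lines named for its loss, although RNA remained, with Hmgn2 at 42.2% of WT in Hmgn2-/-. As a check of the cell type, 8 pluripotency genes were all detected and summed to between 5613 and 6776 CPM per library, with Pou5f1 the most abundant. Of these 8, 2 were higher and 1 lower in Hmgn1-/-, 2 higher and 1 lower in Hmgn2-/-, and 3 higher and 1 lower in the double, at an adjusted p under 0.05 by edgeR. By the same rule 13.3%, 7.63% and 13.5% of all genes tested were higher and 15.1%, 11.2% and 15.5% lower.

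Cryab encodes alpha B-crystallin, a small heat shock protein that is abundant in the lens and in muscle. It lies at chr9:50751325-50756636 on the plus strand of GRCm38. Its WT libraries were at 5.62, 7.89 and 13.7 CPM, from 180, 141 and 397 counts. The Hmgn1-/- libraries were at 2.38, 2.10 and 3.49 CPM and the Hmgn2-/- libraries at 3.73, 3.67 and 3.27 CPM. In Hmgn1-/-Hmgn2-/-, the libraries were at 6.60, 6.37 and 7.63 CPM. All 6 single-knockout libraries thus lay under every WT library and every double-knockout library, while the double overlapped WT. The WT libraries were the most spread, the highest being 2.44 times the lowest.

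Group means of Cryab were 9.08 ± 4.19 CPM (SD, n = 3) in WT, 2.66 ± 0.735 in Hmgn1-/-, 3.56 ± 0.252 in Hmgn2-/- and 6.86 ± 0.671 in the double. These means are 29.3%, 39.2% and 75.6% of WT in the order of the knockouts. The means of WT and the double did not differ beyond their spread. As log2 fold changes, which count doublings, Cryab was at -1.78 in Hmgn1-/-, -1.35 in Hmgn2-/- and -0.41 in the double against WT. The double stood 1.37 above Hmgn1-/- and 0.94 above Hmgn2-/- on the same scale, and Hmgn2-/- stood 0.43 above Hmgn1-/-. That last value was 0.67 without Hmgn1-/- replicate 3 and 0.30 without Hmgn1-/- replicate 2. WT replicate 3 carried much of the difference in the double: without it the log2 fold change of Cryab was -1.34 in Hmgn1-/-, -0.91 in Hmgn2-/- and 0.03 in the double, whose sign changed. Without WT replicate 1 the values were -2.07, -1.62 and -0.70. The 3 knockout comparisons share the WT libraries, so their values are not independent of each other. In bulk samples fewer cells of a type and less RNA per cell cannot be told apart.

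**Figure D1:**
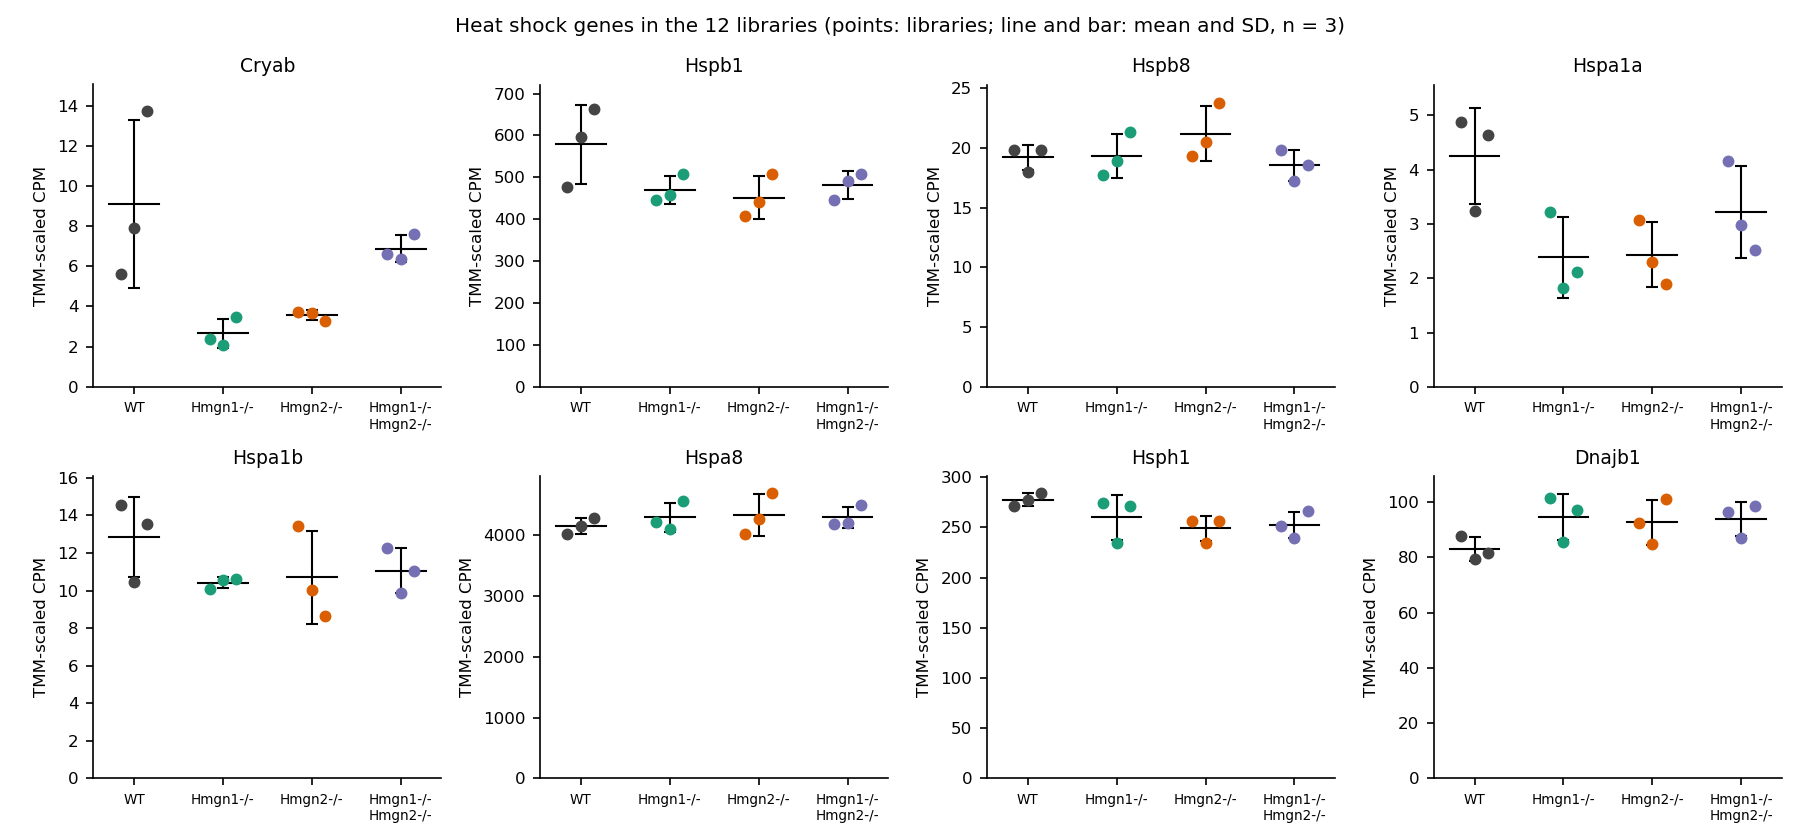
TMM CPM of each of the 8 members (vertical axes, 1 panel per gene, each from 0) in the 12 libraries by genotype (horizontal axis), with points for libraries, lines for group means and bars for SD (n = 3). Cryab is at 2.10 to 3.73 CPM in the 6 single-knockout libraries and at 5.62 to 13.7 CPM in the other 6, while Hspa8 lies between 4015 and 4703 CPM in all 12.

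Cryab shares 1030 bases with Hspb2, a small heat shock gene of muscle on the opposite strand, and the strand of the counting was not given, so some of its counts may come from Hspb2. Hspb2 itself was at 1.59, 1.68 and 1.94 CPM in WT, 1.31, 1.39 and 1.38 in Hmgn1-/-, 1.08, 1.25 and 1.31 in Hmgn2-/-, and 1.54, 2.26 and 1.30 in the double. The Hspb2 means of 1.74, 1.36, 1.21 and 1.70 CPM stood in nearly the same order of genotypes as those of Cryab, at lower levels and with smaller differences between them.

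Lists of markers of other cell types were read beside Cryab, and no cell type is assigned from them. The 8 smooth muscle genes, of which Tpm2 was the most abundant and Myh11 and Actg2 were each at 0 in 2 of the 12 libraries, summed to 131, 123 and 141 CPM in WT, 58.3, 59.0 and 68.5 in Hmgn1-/-, 62.1, 65.0 and 77.2 in Hmgn2-/-, and 58.4, 59.9 and 65.2 in the double. Of the 6 tested, 5, 4 and 5 were lower in Hmgn1-/-, Hmgn2-/- and the double, where the sixth, Des, was higher by 0.30 on the log2 scale (adjusted p 0.0260 by edgeR). The 8 fibroblast genes, of which Thy1 was the most abundant, Lum was at 0 in all libraries and Postn, Dcn and Col3a1 were at 0 in 8, 6 and 1 of them, summed to 21.3, 17.6 and 22.2 CPM in WT, 6.99, 5.83 and 6.48 in Hmgn1-/-, 6.39, 7.08 and 6.90 in Hmgn2-/-, and 5.99, 8.98 and 7.70 in the double, with 3 of 4 tested lower in each knockout. By the same rule 15.1%, 11.2% and 15.5% of all genes were lower in Hmgn1-/-, Hmgn2-/- and the double, and 13.5% higher in the double. In both sums the double overlapped each single knockout.

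The 6 primitive endoderm genes, with Dab2 the most abundant and none at 0 in any library, moved the other way. They summed to 10.9, 11.6 and 13.4 CPM in WT, 74.7, 61.6 and 62.3 in Hmgn1-/-, 92.8, 84.6 and 63.3 in Hmgn2-/-, and 186, 186 and 174 in the double. Those higher than WT were 6, 5 and 6 of 6, beside 13.3%, 7.63% and 13.5% of all genes. The 5 lens genes, with Mip the most abundant and Cryba1 at 0 in 2 libraries, summed to between 3.70 and 5.01 CPM in the 12 libraries. Of the 2 lens genes tested, 0 passed an adjusted p of 0.05 in any knockout by edgeR, 0, 1 and 0 were under an unadjusted p of 0.05, and 0 passed by DESeq2. The 3 lists that moved did so beside Cryab and their part in the result was not tested.

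**Figure D2:**
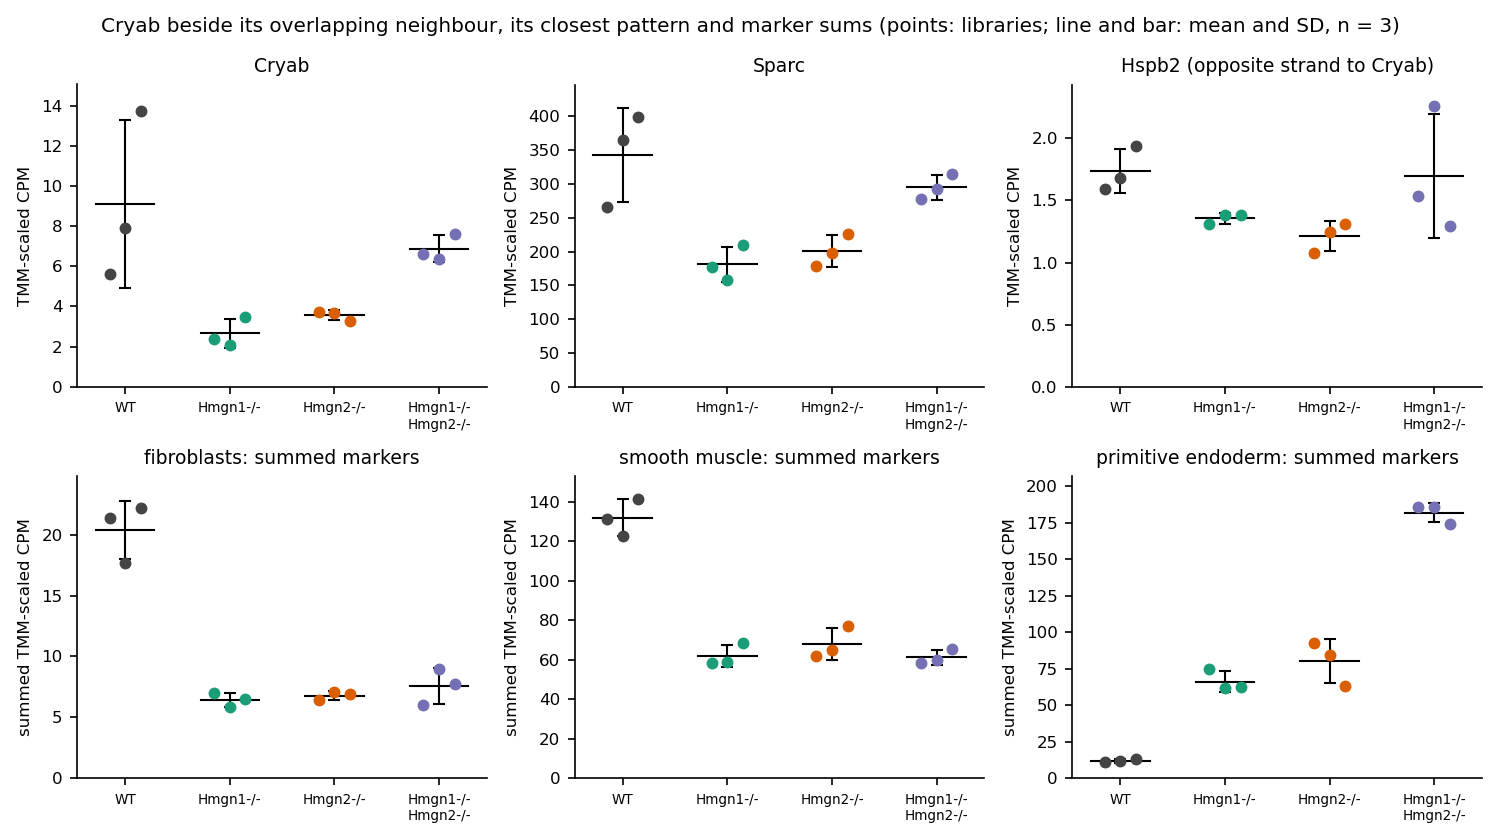
TMM CPM of Cryab, Sparc and Hspb2 and the summed TMM CPM of the fibroblast, smooth muscle and primitive endoderm lists (vertical axes, each from 0) in the 12 libraries by genotype (horizontal axis), with points for libraries, lines for means and bars for SD (n = 3). The smooth muscle sum stays at or under 77.2 CPM in every knockout library, and Cryab in the double is at 6.37 to 7.63 CPM.

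Hspb1 encodes HSP25, the mouse form of HSP27, a small heat shock protein that binds unfolded proteins and actin. Its start site follows the promoter with the 2 GAANNTTC matches, at chr5:135887919-135889563 on the plus strand. It was at 476, 597 and 663 CPM in WT, 446, 457 and 508 in Hmgn1-/-, 407, 441 and 507 in Hmgn2-/-, and 445, 492 and 508 in the double. All 9 knockout libraries lay under the WT mean of 579 ± 94.9 CPM, but each knockout overlapped WT, whose replicate 1 was low. By the quasi-likelihood test of edgeR, with p adjusted over all genes tested by the method of Benjamini and Hochberg, Hspb1 fell by 0.30 on the log2 scale in Hmgn1-/- (SE 0.0941, adjusted p 0.0262) and by 0.27 in the double (SE 0.0942, adjusted p 0.0445). Without WT replicate 3 the log2 fold change of Hspb1 was -0.20 in Hmgn1-/- and -0.17 in the double. In Hmgn2-/- its log2 fold change of -0.36 (SE 0.122) did not pass 0.05 by the same edgeR test, with an adjusted p of 0.0674. The adjusted p of Hspb1 moved with single libraries and with the setting. In Hmgn1-/- the adjusted p from edgeR was 0.113 without Hmgn1-/- replicate 1, 0.0874 without Hmgn1-/- replicate 2, 0.0844 without WT replicate 2 and 0.142 without WT replicate 3. In the double it was 0.168, 0.0927 and 0.0623 without double replicates 1, 2 and 3, 0.118 without WT replicate 2 and 0.221 without WT replicate 3. In Hmgn2-/- it became 0.0102 without Hmgn2-/- replicate 3 and 0.0130 without WT replicate 1, and it was called lower by DESeq2 (adjusted p 0.0389), with no filter on low counts (0.0274) and with 12 libraries in a single fit (0.0195). In that fit the fall of Hspb1 in the double had an adjusted p of 0.0723. Replicate numbers are shared between groups but not paired by the labels, and with the number as a term in the fit, the replicate block, Hspb1 had an adjusted p of 0.000341 in Hmgn1-/-, 0.0158 in Hmgn2-/- and 0.00349 in the double by edgeR. With no filter it had 0.000789 in Hmgn1-/- and 0.00481 in the double.

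Hspb8, a small heat shock protein that works with the co-chaperone BAG3, was at 19.8, 18.0 and 19.8 CPM in WT and 17.7, 18.9 and 21.4 in Hmgn1-/-. Its Hmgn2-/- libraries were at 19.4, 20.5 and 23.8 CPM and its double-knockout libraries at 19.8, 17.2 and 18.6 CPM. All groups overlapped WT. The log2 fold changes of Hspb8 were -0.00 in Hmgn1-/- (95% interval -0.21 to 0.21), 0.14 in Hmgn2-/- (-0.11 to 0.38) and -0.06 in the double (-0.26 to 0.14), and its adjusted p by edgeR was 0.994, 0.457 and 0.689.

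Hspa1a and Hspa1b encode inducible HSP70, the ATP-driven chaperone whose RNA is widely used as a mark of the heat shock response. They are neighbouring copies on the minus strand of chromosome 17, Hspa1a at chr17:34969190-34972156 and Hspa1b at chr17:34956436-34959238. Their coding sequences of 1926 and 1929 bases were 99.43% identical and differed at 11 positions. Of 1777 windows of 150 bases, the read length, in the coding sequence of Hspa1a, 969 (54.5%) were also in Hspa1b, so the split of reads between the copies is uncertain and their sum is given too. Hspa1a also shares 2225 bases with Gm20481 on the opposite strand, a gene not in the count table.

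The counts of Hspa1a were low, from 32 to 156 per library. It was at 4.87, 3.25 and 4.64 CPM in WT, 3.23, 1.82 and 2.11 in Hmgn1-/-, 3.08, 2.31 and 1.90 in Hmgn2-/-, and 4.17, 2.98 and 2.52 in the double. All 6 single-knockout libraries lay under every WT library, the nearest pair being 3.23 and 3.25 CPM, while the double overlapped WT. Hspa1a fell by 0.84 on the log2 scale in Hmgn1-/- (SE 0.233, adjusted p 0.0151 by edgeR) and by 0.80 in Hmgn2-/- (SE 0.228, adjusted p 0.0304 by edgeR). In the double its log2 fold change of -0.41 (95% interval -0.88 to 0.05) did not pass, with an adjusted p of 0.174 by edgeR. The fall of Hspa1a in Hmgn1-/- had an adjusted p of 0.0711 without Hmgn1-/- replicate 2 and 0.0628 without Hmgn1-/- replicate 3. That in Hmgn2-/- had 0.113 and 0.0552 without Hmgn2-/- replicates 2 and 3, 0.0874 without WT replicate 1 and 0.111 without WT replicate 3. With the replicate block Hspa1a had 0.00136 in Hmgn1-/- and 0.0285 in Hmgn2-/-, and with counts thinned to the smallest library 0.0132 and 0.0265.

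Hspa1b was at 14.6, 10.5 and 13.6 CPM in WT, 10.1, 10.6 and 10.6 in Hmgn1-/-, 13.4, 10.0 and 8.62 in Hmgn2-/-, and 12.3, 9.89 and 11.0 in the double, and every knockout overlapped WT. Its log2 fold changes of -0.32, -0.27 and -0.23 did not pass 0.05 by edgeR, with adjusted p of 0.0747, 0.345 and 0.214, although without WT replicate 2 the value of Hspa1b in Hmgn1-/- had an adjusted p of 0.0182, and with the replicate block 0.0394. The sum of both copies was at 19.4, 13.7 and 18.2 CPM in WT, 13.3, 12.4 and 12.7 in Hmgn1-/-, 16.5, 12.3 and 10.5 in Hmgn2-/-, and 16.4, 12.9 and 13.5 in the double. Only the Hmgn1-/- libraries lay wholly under WT for the sum. The summed counts of Hspa1a and Hspa1b fell by 0.43 on the log2 scale in Hmgn1-/- (SE 0.123, adjusted p 0.0175 by edgeR), while -0.38 in Hmgn2-/- (adjusted p 0.162) and -0.27 in the double (adjusted p 0.145) did not pass. Hspa1a took 25.1%, 23.7% and 25.5% of the pair's counts in WT and 24.2%, 14.7% and 16.6% in Hmgn1-/-. In Hmgn2-/- its share was 18.6%, 18.7% and 18.1%, and in the double 25.3%, 23.2% and 18.6%.

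Hspa8 encodes HSC70, the HSP70 made at all times, and Hsph1 encodes HSP105, an HSP110 that exchanges the nucleotide of HSP70. Hspa8 was at 4015, 4145 and 4286 CPM in WT, 4225, 4102 and 4558 in Hmgn1-/-, 4027, 4262 and 4703 in Hmgn2-/-, and 4191, 4199 and 4494 in the double. Its groups overlapped, and its log2 fold changes of 0.04 (95% interval -0.07 to 0.16), 0.06 (-0.12 to 0.25) and 0.04 (-0.06 to 0.15) did not pass by edgeR, with adjusted p of 0.584, 0.678 and 0.555. Hspa8 hosts small nucleolar RNAs in its introns, of which Snord14c and Snord14d are counted apart. Hsph1 was at 271, 277 and 284 CPM in WT, 274, 234 and 271 in Hmgn1-/-, 256, 235 and 256 in Hmgn2-/-, and 251, 239.7 and 266 in the double. The Hmgn2-/- and double-knockout libraries of Hsph1 lay wholly under WT, yet its log2 fold changes of -0.10, -0.15 and -0.14 did not pass by edgeR, with adjusted p of 0.266, 0.177 and 0.0654. In the double the adjusted p of Hsph1 became 0.0403 without double replicate 3, 0.0397 without WT replicate 1 and 0.0452 with the replicate block.

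Dnajb1 encodes HSP40, which brings unfolded proteins to HSP70 and starts its ATP cycle. It was at 87.8, 79.4 and 81.5 CPM in WT, 101, 85.4 and 97.3 in Hmgn1-/-, 92.3, 84.7 and 101 in Hmgn2-/-, and 96.2, 86.9 and 98.4 in the double. Replicate 2 was the lowest library of Dnajb1 in each group, and each knockout overlapped WT. Its log2 fold changes were above 0, at 0.19, 0.16 and 0.17, and did not pass 0.05 by edgeR, with adjusted p of 0.0669, 0.252 and 0.0661. Without Hmgn1-/- replicate 2 or WT replicate 1 the adjusted p of Dnajb1 in Hmgn1-/- became 0.0283 or 0.0222, and in the double it became 0.0489 without double replicate 2 and 0.0258 without WT replicate 1. With the replicate block Dnajb1 was called higher in Hmgn1-/- (adjusted p 0.0148 by edgeR) and in the double (0.0296), and with no filter in Hmgn1-/- (0.0443), so these 2 calls depend on the setting.

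**Figure D3:**
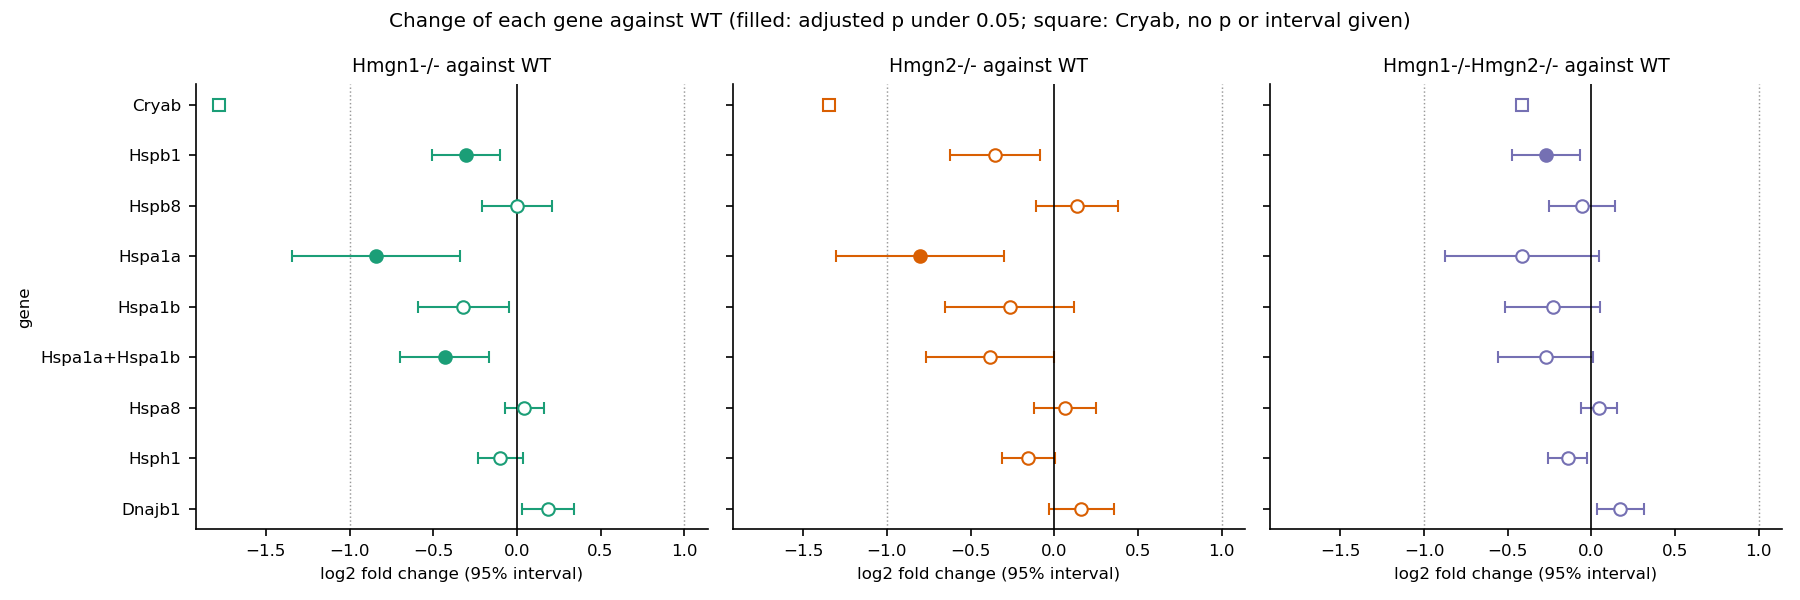
Log2 fold change against WT (horizontal axes, 1 panel per knockout) of the 8 members and of Hspa1a and Hspa1b summed (vertical axis), with points for fitted values, filled where the adjusted p was under 0.05, and bars for 95% intervals from edgeR. Cryab, drawn as a square with no interval, is at -1.78, -1.35 and -0.41, and the fitted values of the other members lie between -0.84 and 0.19.

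Counts of members were set beside the share of all genes called by the same rule. A gene past the threshold had an adjusted p under 0.01 and a log2 fold change of at least 1 in size. Cryab is left out of these counts, since its choice used the same comparisons. With all libraries, 0 of the other 7 members passed this threshold by edgeR in Hmgn1-/- against WT, beside 5.98% of all 13917 genes tested, 0 in Hmgn2-/-, beside 5.15% of 14047, and 0 in the double, beside 6.3% of 14128. Of the 7, 4, 2 and 3 were under an unadjusted p of 0.05, beside 38.7%, 31.02% and 38.9% of all genes, and 0 passed the threshold by DESeq2. Without Hmgn1-/- replicate 1, Hspa1a passed it in Hmgn1-/-, with a log2 fold change of -1.13 and an adjusted p of 0.00690 by edgeR.

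At an adjusted p under 0.05, 2 of the 7 other members (Hspb1 and Hspa1a) were lower in Hmgn1-/-, where 15.1% of all genes were lower, and 0 were higher, where 13.3% were. In Hmgn2-/- 1 of 7 (Hspa1a) was lower, beside 11.2% of all genes, and 0 were higher, beside 7.63%. For the double, 1 of 7 (Hspb1) was lower, beside 15.5%, and 0 were higher, beside 13.5%. By DESeq2 2, 2 and 1 of the 7 were lower, beside 14.1%, 11.6% and 14.2% of all genes, and 0 higher, beside 12.04%, 8.24% and 12.6%. With the replicate block 3, 2 and 2 of the 7 were lower by edgeR, beside 18.1%, 11.3% and 17.6% of all genes, and 1, 0 and 1 (Dnajb1) higher, beside 16.7%, 7.77% and 15.9%. Libraries of knockout and WT did not overlap for 1 of the 7 in Hmgn1-/- (42.5% of all genes), 2 of the 7 in Hmgn2-/- (36.1%) and 1 of the 7 in the double (42.6%). The members' shares without overlap were thus under those of all genes, and the shares lower stood on either side of them. All 8 members passed the filter on low counts in all 7 fits, and the median log2 fold change over the 7 besides Cryab was -0.10, -0.15 and -0.14 in Hmgn1-/-, Hmgn2-/- and the double, beside 0.00, 0.01 and 0.00 over all genes.

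Comparing the knockouts with each other asks whether losing 1 gene differs from losing the other or both. Of the 7 members besides Cryab, 0 passed the threshold by edgeR between Hmgn2-/- and Hmgn1-/- (0.176% of all genes did), between the double and Hmgn1-/- (0.511%) or between the double and Hmgn2-/- (0.0434%). At an adjusted p under 0.05 by edgeR, 0 of the 7 differed in these comparisons, beside 0.469%, 1.82% and 0.261% of all genes, with 0 under an unadjusted p of 0.05, beside 3.2%, 9.53% and 4.44% of all genes, and 0 by DESeq2. For Hspa1a, which passed in the single knockouts but not in the double, the difference of double and Hmgn1-/- was 0.43 (95% interval -0.09 to 0.95, adjusted p 0.660 by edgeR) and that of double and Hmgn2-/- was 0.39 (-0.15 to 0.94, adjusted p 0.9996 by edgeR). The fall of Hspa1a is therefore not shown to differ between the double and either single knockout.

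Departure from additivity is the log2 fold change of the double minus the sum of those of both single knockouts, fitted in all 12 libraries, and is 0 where the losses add up. For Cryab it was 2.72, described only. Of the other 7 members, 0 passed the threshold by edgeR, beside 3.48% of all 14323 genes tested, 2 were under an unadjusted p of 0.05, beside 25.9% of all genes, and 0 passed by DESeq2. At an adjusted p under 0.05, 1 of the 7 departed upward, beside 7.76% of all genes, and 0 downward, beside 5.45%. That gene was Hspa1a, with a departure of 1.24 (SE 0.361, adjusted p 0.0337 by edgeR). The 3 fitted changes of Hspa1a were all below 0, and that of the double was smaller in size than either single one. This call on Hspa1a was lost when any of 7 of the 12 libraries was left out, with an adjusted p of 0.1003 and 0.0526 without double replicates 1 and 2, 0.0891 and 0.0747 without Hmgn1-/- replicates 2 and 3, 0.0774 without Hmgn2-/- replicate 2, and 0.0632 and 0.0788 without WT replicates 1 and 3. It was kept by DESeq2 (0.0122), with no filter (0.0176), with RLE scaling (0.0332), with 10 counts in every library (0.0354) and with thinned counts (0.0257), and with the replicate block the departure of Hspa1a was 1.24 with an adjusted p of 0.00366, past the threshold, as were 4.06% of all genes. The sum of Hspa1a and Hspa1b departed by 0.55 and did not pass (adjusted p 0.121 by edgeR), nor did Hspb1, at 0.40 (adjusted p 0.0991 by edgeR), which had 0.0247 without Hmgn2-/- replicate 3, 0.0112 without WT replicate 1 and 0.00423 with the replicate block. The median departure over the 7 members besides Cryab was 0.12, beside -0.01 over all genes.

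Levels of different genes were compared per kilobase of exon (RPKM, from TMM CPM). In WT, Hspa8 was at 965 ± 31.5 RPKM (SD, n = 3) and Hspb1 at 561 ± 92.1. Hsph1 followed at 38.2 ± 0.901 and Dnajb1 at 25.9 ± 1.37. Hspb8 at 9.85 ± 0.530, Cryab at 6.14 ± 2.83, Hspa1b at 4.59 ± 0.761 and Hspa1a at 1.43 ± 0.296 were the lowest. Cryab did not differ from Hspa1b beyond its spread in WT. In RPKM the Cryab level was 1.80 ± 0.497 in Hmgn1-/-, 2.41 ± 0.170 in Hmgn2-/- and 4.64 ± 0.454 in the double.

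As a description, the genes most like Cryab were ranked by Pearson's r of log2 levels over the 12 libraries, which fall in 4 genotypes, among 11554 genes. The nearest were Sparc (r 0.958), Tinagl1 (0.946), Ywhaz (0.946), Bin1 (0.944) and Cpne2 (0.944). A high r does not mean a change of like size. Ywhaz was at 92.2%, 94.4% and 97.4% of WT in Hmgn1-/-, Hmgn2-/- and the double. Sparc, a protein of the extracellular matrix, was at 343 ± 69.6 CPM in WT, 182 ± 25.9 in Hmgn1-/-, 201 ± 23.6 in Hmgn2-/- and 295 ± 18.5 in the double. Among the members, Hspb1 ranked 443 (r 0.713), Hspa1a 755 (0.647), Hsph1 1941 (0.459), Hspa1b 2017 (0.447), Hspa8 5580 (-0.0357), Hspb8 6967 (-0.192) and Dnajb1 9019 (-0.434). Most like the sum of Hspa1a and Hspa1b was Rab6a (r 0.961), at means of 99.0, 83.8, 87.9 and 91.2 CPM in WT, Hmgn1-/-, Hmgn2-/- and the double.

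Other chaperone and stress genes were read from 10 lists, which hold 105 genes besides the members. Of 102, 101 and 102 tested in Hmgn1-/-, Hmgn2-/- and the double, 22, 16 and 21 were higher and 15, 12 and 15 lower at an adjusted p under 0.05, and 3, 4 and 1 were past the threshold. Of all genes tested, 13.3%, 7.63% and 13.5% were higher, 15.1%, 11.2% and 15.5% lower and 5.98%, 5.15% and 6.3% past the threshold. The listed genes had median log2 fold changes of 0.02, 0.04 and 0.01. Leaving out some single library ended 15 of 37, 15 of 28 and 13 of 36 of these calls, and the genes named next with fold changes kept an adjusted p under 0.05 without any 1 library unless stated. Single lists stood further from 0, with medians of -0.61, -0.33 and -0.29 for the immediate early genes and 0.24, 0.27 and 0.28 for the oxidative stress genes.

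Counts for each list, which take in the members other than Cryab and stand beside the shares of all genes just given, are of genes higher and lower at an adjusted p under 0.05 in Hmgn1-/-, Hmgn2-/- and the double in turn. Of the 8 small heat shock genes besides Cryab, 5, 4 and 5 were tested, with 1, 0 and 0 higher and 1, 0 and 1 lower. Of the 13 HSP70 and HSP110 genes, 1 was higher in each knockout and 2, 1 and 0 lower. Among the 3 HSP90 genes, 2, 0 and 1 were higher and 0 lower. Among the 10 chaperonins, which fold proteins in a closed chamber, 0 passed by edgeR in any knockout, 0 were under an unadjusted p of 0.05 and 0 passed by DESeq2.

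HSP40 genes, 17 in number, had 5, 3 and 4 higher and 3, 2 and 2 lower. Dnajc6, which uncoats clathrin vesicles with HSC70, was at 16.8 ± 2.20 CPM in WT, 41.4 ± 1.04 in Hmgn1-/-, 31.4 ± 5.25 in Hmgn2-/- and 32.5 ± 2.06 in the double. Every knockout library of Dnajc6 lay above every WT library. Its log2 fold changes were 1.29, 0.90 and 0.94, with adjusted p of 4.177e-07, 0.00114 and 1.34e-05 by edgeR. Its fold change in the double reached the fold limit without WT replicate 1 (1.03), as did that of Dnajc6 in Hmgn2-/- without Hmgn2-/- replicate 3 (1.03). Dnajb5 and Dnajb6 fell, by 0.50 and 0.23 in Hmgn1-/- and by 0.49 and 0.22 in the double, while their lower values in Hmgn2-/- did not hold without each library. The 18 co-chaperones had 2, 1 and 2 higher and 1, 1 and 2 lower. Bag2, an inhibitor of the ubiquitin ligase CHIP, was at 5.75 ± 0.301, 10.8 ± 0.857, 11.8 ± 0.611 and 11.4 ± 1.00 CPM in WT, Hmgn1-/-, Hmgn2-/- and the double, and rose by 0.90, 1.04 and 0.98 on the log2 scale (adjusted p 0.000113, 0.000235 and 4.567e-05 by edgeR). Bag2 in Hmgn2-/- fell short of a log2 fold change of 1 without Hmgn2-/- replicate 2, at 0.999, and in the double it reached 1.01 and 1.03 without double replicates 2 and 3 and 1.01 without WT replicate 1.

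Bag3, the partner of Hspb8 and a target of HSF1, was at 23.4, 25.5 and 23.3 CPM in WT, 18.4, 17.9 and 17.05 in Hmgn1-/-, 19.9, 18.0 and 15.3 in Hmgn2-/-, and 20.3, 21.1 and 19.4 in the double. All 9 knockout libraries of Bag3 lay under every WT library. It fell by 0.44, 0.43 and 0.25 on the log2 scale in Hmgn1-/-, Hmgn2-/- and the double, with adjusted p of 0.00199, 0.0220 and 0.0443 by edgeR. In Hmgn2-/- the adjusted p of Bag3 was 0.0757 without Hmgn2-/- replicate 2, 0.0969 without WT replicate 2 and 0.0646 without WT replicate 3. In the double it was 0.0909, 0.0673 and 0.135 without double replicates 1, 2 and 3, and 0.152 and 0.0721 without WT replicates 2 and 3, and DESeq2 gave 0.0534.

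Heat shock factors and regulators, 7 genes, had 2 higher and 1 lower in each knockout. Hsf4, a heat shock factor of the lens, was at 2.10 ± 0.222 CPM in WT, 4.98 ± 0.761 in Hmgn1-/-, 4.25 ± 0.675 in Hmgn2-/- and 4.77 ± 0.711 in the double. Every knockout library of Hsf4 lay above every WT library, from counts of 42 to 156. It rose by 1.26, 1.02 and 1.20 on the log2 scale, with adjusted p of 0.000236, 0.00475 and 0.000283 by edgeR. In Hmgn2-/- Hsf4 no longer passed the threshold of 0.01 and 1 without Hmgn2-/- replicate 2 (0.99, adjusted p 0.0257) or 3 (0.93, adjusted p 0.00936), or without WT replicate 1 (0.96, adjusted p 0.0163), 2 (1.10, adjusted p 0.0132) or 3 (0.99, adjusted p 0.0255), all by edgeR. Serpinh1, the collagen chaperone HSP47, was at 105, 123, 126 and 177 CPM on average in WT, Hmgn1-/-, Hmgn2-/- and the double, and rose by 0.75 in the double (adjusted p 1.251e-06 by edgeR). Beside Hsf4, Hspa1a had log2 fold changes of -0.84, -0.80 and -0.41 in Hmgn1-/-, Hmgn2-/- and the double. In the same order Hspa1b had -0.32, -0.27 and -0.23, and Dnajb1 had 0.19, 0.16 and 0.17. Whether the rise of Hsf4 is linked to the levels of these members was not tested.

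The 18 genes of endoplasmic reticulum stress had 2, 2 and 3 higher and 4, 3 and 4 lower, with Atf4 higher by 0.37, 0.50 and 0.39 on the log2 scale (adjusted p 0.00240, 0.00794 and 0.00161 by edgeR) and its target Trib3 higher by 0.70, 0.86 and 0.66, with 1.07 in Hmgn2-/- without WT replicate 1. The 8 oxidative stress genes had 5, 4 and 5 higher and 1, 0 and 1 lower, with Srxn1 higher by 0.54, 0.66 and 0.69 (adjusted p 0.000136, 0.000547 and 1.226e-05 by edgeR). The 10 immediate early genes, which answer growth signals and handling within minutes, had 2, 3 and 3 higher and 4, 5 and 5 lower. Jun was at 12.6 ± 2.01 CPM in WT, 5.49 ± 0.583 in Hmgn1-/-, 7.43 ± 0.905 in Hmgn2-/- and 7.02 ± 1.09 in the double, and its log2 fold changes were -1.21, -0.76 and -0.85 (adjusted p 3.298e-05, 0.00503 and 0.000556 by edgeR). Egr1 fell by 0.65, 1.07 and 0.89 on the log2 scale, past the threshold in Hmgn2-/-. Fos fell by 1.04 in Hmgn2-/- (adjusted p 0.00768 by edgeR), but passed the threshold there only with all libraries or without Hmgn2-/- replicate 1, its adjusted p being 0.0441 and 0.0146 without Hmgn2-/- replicates 2 and 3 and 0.0224, 0.0288 and 0.0221 without WT replicates 1, 2 and 3. Junb rose where Jun fell, by 0.66, 0.64 and 0.53 (adjusted p 1.488e-05, 0.00149 and 0.000173 by edgeR).

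**Figure D4:**
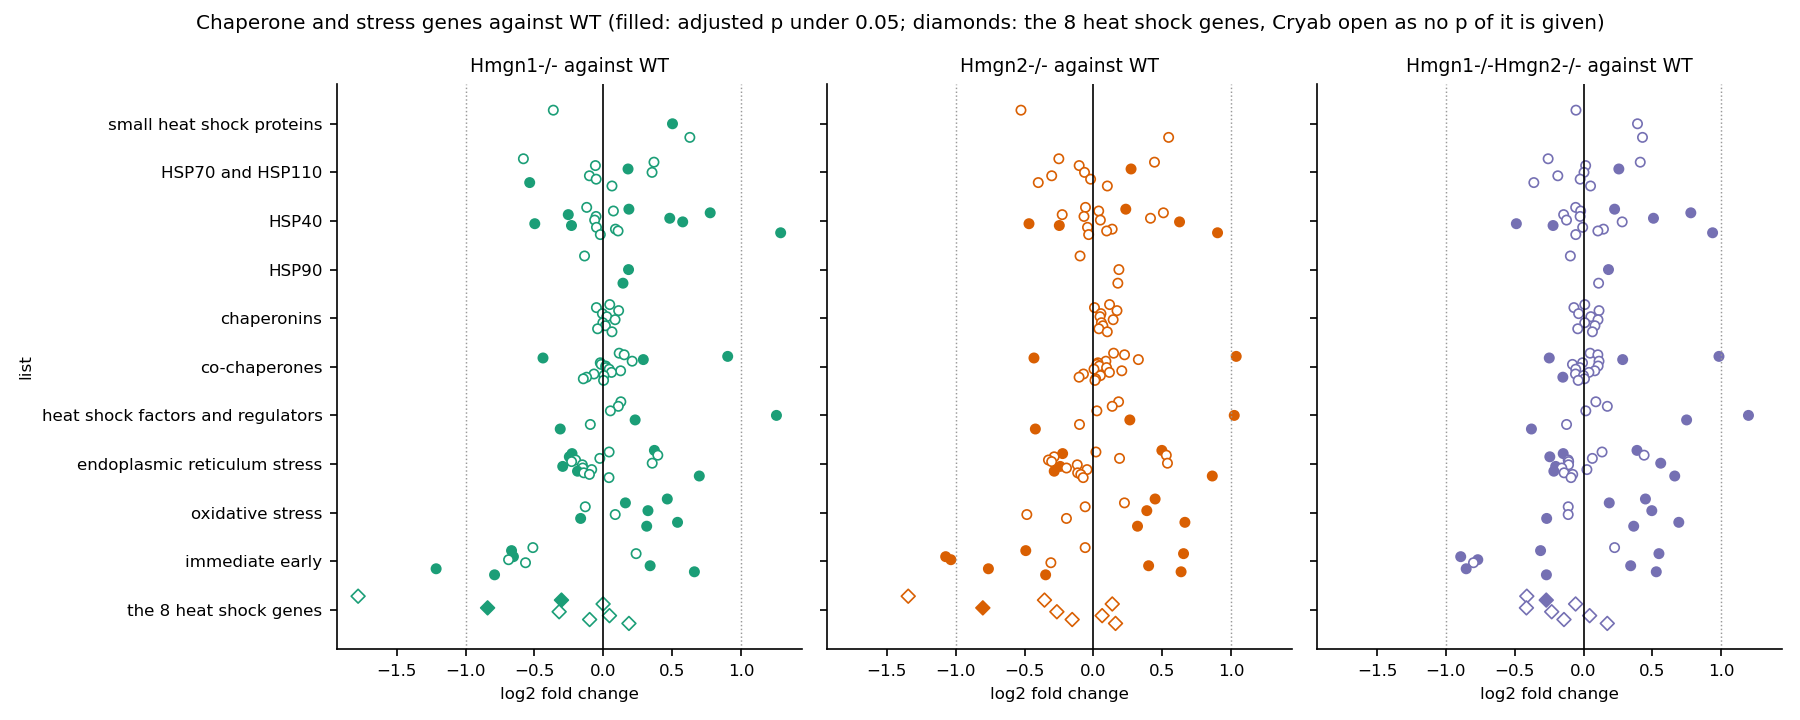
Log2 fold change against WT (horizontal axes, 1 panel per knockout) of each tested gene of the 10 chaperone and stress lists (vertical axis), with points for genes, filled where the adjusted p was under 0.05, and diamonds for the 8 members, that of Cryab open as no p of it is given. The 10 chaperonins hold close to 0 and the immediate early genes spread on both sides, from Jun at -1.21 in Hmgn1-/- to Junb at 0.66.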

How the data were processed

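The authors deposited integer read counts per gene, 1 file per genotype, for 12 libraries in 4 groups of 3. The submitters' processing notes name STAR, DESeq2 and mm10. The counting program, annotation, strand and handling of duplicates were not given in the sources used here. Each pair of groups was fitted on all genes in R 4.3.3 with edgeR 4.0.16, using filterByExpr, TMM scaling and its quasi-likelihood test, with p adjusted by the method of Benjamini and Hochberg, and additivity was a contrast in a fit of all 12 libraries. Genes past the threshold had an adjusted p under 0.01 and a log2 fold change of at least 1 in size, and a second call used an adjusted p under 0.05. Cryab was fitted with all genes, but no p of it is given and counts of members past a limit leave it out. Intervals are 95% and cover the replicates of 1 line per genotype. Replicates varied more than counting noise, with chi-square per degree of freedom between 3.402 and 36.38. The rule for named genes took the 8 members, Hmgn1 and Hmgn2, list genes past the threshold, the 5 largest changes per list among those under 0.05 only, the most abundant marker of each list, and the 5 genes most like Cryab or the sum of Hspa1a and Hspa1b. Of the list genes it took, fold changes are given mainly for those whose calls held without any 1 library, a choice made after their values were seen. The members and lists were chosen with earlier results of these data known. The lists cover small heat shock proteins, HSP70 and HSP110, HSP40, HSP90, chaperonins, co-chaperones, heat shock factors and regulators, endoplasmic reticulum stress, oxidative stress, immediate early genes, and markers of pluripotent cells, primitive endoderm, fibroblasts, smooth muscle and lens. Alternatives were DESeq2 1.42.0, RLE scaling, no filter, 10 counts in every library, counts thinned to 17337908 per library, 12 libraries in a single fit, summed counts of Hspa1a and Hspa1b, a replicate block, other thresholds and leaving out each library. The steps were tested on simulated data. Positions and exon lengths came from GENCODE vM21 on GRCm38, and promoters from RefSeq.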

Additional observations from a re-analysis of the deposited data

Results flagged for a closer look

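The genes below departed from additivity, by the contrast over 12 libraries at an adjusted p under 0.05 in edgeR. A shift of like size in every knockout line against WT also gives a departure, of opposite sign. Whether the change on losing 1 Hmgn gene depends on the other was not tested apart from such a shift. Hspa1a was the 1 such gene among the 7 members besides Cryab, with a log2 departure of 1.24, beside 7.76% of all genes called upward. Reads cannot be split with certainty between Hspa1a and Hspa1b, and their sum departed by 0.55 and was not called (adjusted p 0.121). Of 103 other genes tested in the chaperone and stress lists, 12 departed upward and 10 downward, beside 7.76% and 5.45% of all genes. Of the other chaperones, co-chaperones and factors, the departure was above 0 for Dnajb5 at 0.49, Dnajb6 at 0.27, Dnajb11 at 0.35 and Bag3 at 0.63. It was below 0 for Dnajb4 at -0.91, Dnajc6 at -1.24, Bag2 at -0.95 and Hsf4 at -1.07. In the other stress and immediate early lists it was above 0 for Hspa5 at 0.34, Dnajc3 at 0.43, Pdia4 at 0.27, Canx at 0.31, Jun at 1.14, Egr1 at 0.84, Btg2 at 0.86 and Klf6 at 0.88. It was below 0 there for Atf4 at -0.47, Trib3 at -0.89, Gclc at -0.46, Srxn1 at -0.50, Junb at -0.76 and Ier2 at -0.39. The calls of Hspa1a, Dnajb5, Dnajb6, Dnajb11, Dnajc3, Pdia4, Atf4 and Gclc ended when some single libraries were left out.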

How the results depend on the processing

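Genes past the threshold numbered 832 in Hmgn1-/-, 724 in Hmgn2-/- and 890 in the double against WT. They numbered 24 in Hmgn2-/- against Hmgn1-/-, 70 and 6 in the double against Hmgn1-/- and Hmgn2-/-, and 499 in the departure from additivity. Of the 7 members besides Cryab, 0 passed the threshold in any of these comparisons. Without the fold limit the first 5 gene counts were 2412, 1400, 2544, 48 and 150 and the last was 905, since that limit sets aside small changes. With an adjusted p under 0.05 and the fold limit, the double against Hmgn2-/- gave 24 genes and additivity gave 798, with Hspa1a among them, since that p limit is looser. The double against Hmgn2-/- gave 36 genes by DESeq2, 21 with no filter, 18 with 12 libraries in a single fit and 32 with the replicate block, and the cause was not tested. With the replicate block, Hspa1a passed the threshold in additivity (1.24, adjusted p 0.00366 by edgeR), and the cause was not tested. With single libraries left out, genes ran from 659 to 973 in Hmgn1-/-, from 500 to 771 in Hmgn2-/- and from 697 to 1047 in the double. Hspa1a passed the threshold in Hmgn1-/- without Hmgn1-/- replicate 1. There were 17 to 28 genes between the single knockouts, 57 to 72 between the double and Hmgn1-/-, and 369 to 591 in additivity. Between the double and Hmgn2-/- there were 1 to 12 genes (3, 1 and 1 without double replicates 1, 2 and 3, and 12 and 1 without Hmgn2-/- replicates 1 and 2). For the 7 members besides Cryab, 303 of the values with a library left out stood as before, 11 gained a call and 22 lost one. With other settings 336 stood as before, 11 gained a call and 3 lost one. A value called in neither fit counts as standing. With all libraries the only called values were Hspb1 in Hmgn1-/- and the double, and Hspa1a in Hmgn1-/-, Hmgn2-/- and additivity. The 22 and 3 losses fell on these values alone. None of the called values of these 7 changed sign. The sum of Hspa1a and Hspa1b was not refitted with libraries left out.

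Replicate numbers are shared between groups but the labels do not pair them. Residuals of libraries with the same number in different groups correlated at 0.079 to 0.635 over 11555 genes, 16 of 18 above 0.1, and those with different numbers at -0.53 to 0.099. With the replicate block as a term, Hspa1b in Hmgn1-/- had an adjusted p of 0.0394, Hspb1 in Hmgn2-/- 0.0158 and its departure from additivity 0.00423, Dnajb1 0.0148 in Hmgn1-/- and 0.0296 in the double, and Hsph1 in the double 0.0452, all by edgeR. With 12 libraries in a single fit Hspb1 had 0.0723 in the double and 0.0195 in Hmgn2-/-. Without a filter Dnajb1 in Hmgn1-/- had 0.0443 and Hspb1 in Hmgn2-/- 0.0274, and DESeq2 gave the latter 0.0389. Hspa1a had 32 to 156 counts per library, and with counts thinned to the smallest library its calls in both single knockouts and in additivity were kept. With summed counts of Hspa1a and Hspa1b the calls in Hmgn2-/- (adjusted p 0.162) and in additivity (0.121) were lost.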
